A study of Homo sapiens with 12 samples.

Results

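The 9 genes GOT1, GOT2, SLC25A12, SLC25A13, GLUD1, GLUL, ASS1, PYCR1 and ALDH18A1, which make, move and use aspartate, glutamate and proline, were followed in A375 cells, a BRAF-mutant human melanoma line. They were chosen by symbol from the 44659 genes of the count table, and all 9 were found. RNA was sequenced in 12 libraries, 3 each of 4 groups. Controls (CC) were given only DMSO, the solvent, over 72 h. In the treated group (TC) the medium held 500 nM vemurafenib, which inhibits the kinase BRAF, and 500 nM cobimetinib, which inhibits the kinase MEK, over the same 72 h (MAPKi). Persister cells (PC) had the same 72 h of MAPKi and then 2 days in medium without drug. Recovered cells (RC) had 72 h of MAPKi and then 9 days without drug. All cells were grown in DMEM supplemented with serum and glutamine. RNA is given as taken from the cytoplasmic fraction, whereas the paper's sequencing methods speak of total RNA. CC was harvested at the end of the 72 h only, and each harvest time had its own batch of plates, so in PC and RC time in culture, batch and group cannot be told apart. The labels do not say whether replicates were independent cultures, so p-values measure the spread between these samples, which may be technical.

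Aspartate and glutamate are interconverted with their keto acids by the aspartate aminotransferases, GOT1 in the cytosol and GOT2 in mitochondria. Together with malate dehydrogenases and the mitochondrial aspartate-glutamate carriers SLC25A12 and SLC25A13 they belong to the malate-aspartate shuttle. The shuttle carries reducing equivalents into mitochondria and aspartate out to the cytosol, where aspartate is needed for nucleotides, asparagine and arginine. GLUD1 is the mitochondrial glutamate dehydrogenase, GLUL makes glutamine from glutamate, and ASS1 joins aspartate to citrulline on the way to arginine and is known to be silent in many melanomas. ALDH18A1 turns glutamate into pyrroline carboxylate, which PYCR1 reduces to proline.

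Libraries held between 37773389 and 55567097 counts. Levels are given as CPM, counts relative to the normalized library total, and a count of 3, the floor below which a level was not interpreted, was worth 0.0534 to 0.0785 CPM. The floor covers counting error only. DUSP6, an ERK target that reads out drug action, averaged 156 CPM in CC (77.6 to 297) and 3.94 in TC. Its mean was still 5.25 CPM in PC and reached 135 in RC (125 to 145), inside the range of CC. The 7 melanocyte lineage markers summed to 1530 CPM or more in every library, and the sum ran highest in TC (7080 to 10300 CPM). Most of that rise was DCT, with a mean of 407 CPM in CC and 6460 in TC. SOX10, PMEL, MLANA and TYR also had higher means in TC. S100B went the other way (264 CPM in CC, 140 in TC). MITF overlapped between CC (303 to 476 CPM, mean 362) and TC (236 to 407, mean 321). Markers of keratinocytes, other epithelia, immune and endothelial cells summed to at most 2.64 CPM per list. The fibroblast markers summed to 25.6 to 33.7 CPM in CC, 6.62 to 8.25 in TC, 8.06 to 12.2 in PC and 18.9 to 22 in RC. This sum was mostly LUM (25.2 to 33.1 CPM in CC). COL1A1 went the other way, with means of 0.55 CPM in CC, 0.899 in TC and 3.58 in PC, and DCN was at most 0.0746 CPM. Mitochondrially encoded genes took 1.31% to 2.15% of the counts in CC, 2.73% to 3.26% in TC, 2.04% to 2.59% in PC and 1.26% to 1.32% in RC. The part of these shifts in the results below was not tested. In bulk RNA, fewer cells that express a gene and less RNA per cell cannot be told apart.

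Of the 9 genes, 7 passed the filter on low counts (a mean scaled count of at least 10) and were tested. All 7 were lower in PC than in CC, where 35.9% of all 15916 genes tested were lower. In TC 5 of the 7 were lower than in CC, against 34.7% of all genes, and 6 were higher in RC than in PC, against 35.7%. Because the 9 genes were chosen with earlier results of these data known, setting them beside these shares is no independent test. The genes tested also reach down to the filter and were not matched to the members in level. ASS1 and SLC25A12, which drew at most 2 and 13 counts in a library, were not tested. The plot of levels by library shows all 12 values of each gene.

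**Figure D1:**
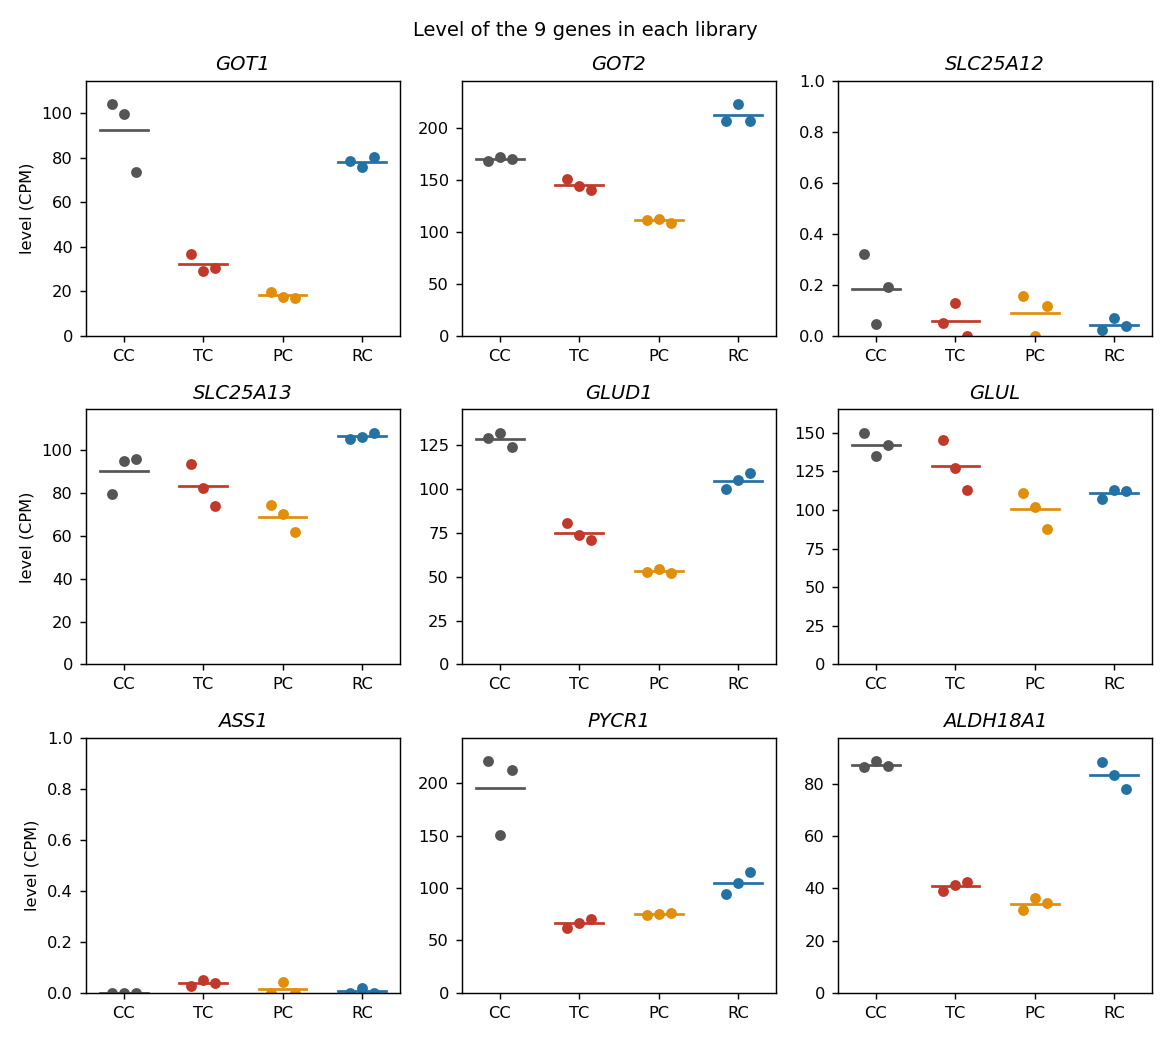
Level of each of the 9 genes in CPM (y axis, from 0) in the 3 libraries (points) of CC, TC, PC and RC (x axis), with a line at each group mean. GOT1 ran from 73.8 to 104 CPM in CC and from 17.1 to 19.7 in PC, while SLC25A12 and ASS1 stayed below 1 CPM throughout.

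The promoters of 4 genes are shown. GOT1, SLC25A13 and ALDH18A1 were the tested members with a match to either of the 2 motifs among those with a promoter entry, PYCR1 having none, and GOT2 is set beside GOT1 as the gene for the same reaction in the other compartment. Sequences run 5′ to 3′ from 250 bases before to 50 bases after the gene start (RefSeq, GRCh38.p14). Capitals mark the match, which is the ATF4 element in GOT1 and the E-box in SLC25A13 and ALDH18A1. GOT2 had no match.
GOT1, chr10:99430575-99430874, minus strand: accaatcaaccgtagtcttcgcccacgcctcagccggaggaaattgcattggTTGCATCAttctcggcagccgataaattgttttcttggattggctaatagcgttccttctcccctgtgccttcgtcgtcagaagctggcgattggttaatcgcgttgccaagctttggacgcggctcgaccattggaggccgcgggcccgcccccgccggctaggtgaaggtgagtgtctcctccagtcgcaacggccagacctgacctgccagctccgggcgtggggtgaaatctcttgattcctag
GOT2, chr16:58734267-58734566, minus strand: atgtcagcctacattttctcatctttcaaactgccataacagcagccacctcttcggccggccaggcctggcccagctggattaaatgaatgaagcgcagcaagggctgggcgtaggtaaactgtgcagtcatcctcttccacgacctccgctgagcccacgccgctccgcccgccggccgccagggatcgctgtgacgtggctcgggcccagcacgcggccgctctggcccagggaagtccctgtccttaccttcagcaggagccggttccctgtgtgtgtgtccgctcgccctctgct
SLC25A13, chr7:96322049-96322348, minus strand: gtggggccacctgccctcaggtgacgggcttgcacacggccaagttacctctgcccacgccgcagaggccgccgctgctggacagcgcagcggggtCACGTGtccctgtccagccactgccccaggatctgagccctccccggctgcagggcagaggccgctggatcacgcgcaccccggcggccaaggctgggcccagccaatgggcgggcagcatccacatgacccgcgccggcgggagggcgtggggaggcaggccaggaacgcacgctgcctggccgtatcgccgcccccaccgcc
ALDH18A1, chr10:95656662-95656961, minus strand: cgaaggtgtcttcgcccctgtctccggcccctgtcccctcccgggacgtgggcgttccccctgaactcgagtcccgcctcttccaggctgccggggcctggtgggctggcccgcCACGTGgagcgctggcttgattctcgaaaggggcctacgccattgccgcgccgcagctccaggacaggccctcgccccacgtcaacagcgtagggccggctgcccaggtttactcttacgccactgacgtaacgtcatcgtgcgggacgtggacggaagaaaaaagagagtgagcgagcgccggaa

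The table of promoters held 10 entries for 8 of the 9 genes. The ATF4 element was searched as TGATGNAA and the E-box, the site bound by MYC and related factors, as CACGTG, both on either strand. These letters do not overlap each other. The match in GOT1 began at position -198 from the start, that in SLC25A13 at -154 and that in ALDH18A1 at -136. One of the 2 promoters of ASS1 held an E-box at -71. No match was found in this window for GOT2, GLUD1, GLUL or SLC25A12. Promoters on chromosome 8 were left out of the search. Among the remaining 35116 promoters, 3.62% held the ATF4 element and 7.26% the E-box, and among the 16859 of them that belong to tested genes 2.1% and 9.15% did. A match is a run of letters and no evidence of binding. ATF4, the factor that induces many genes of amino acid synthesis and transport, averaged 639 CPM in CC, 190 in TC, 215 in PC and 336 in RC. For MYC these means were 59.1, 4.48, 6.32 and 41.9 CPM.

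GOT1, the cytosolic aspartate aminotransferase (chromosome 10, 99396870 to 99430624, minus strand), had the largest fall of the tested members in PC. It stood at 104, 99.6 and 73.8 CPM in CC replicates 1 to 3, at 36.6, 29.1 and 30.7 in TC, then 19.7, 17.7 and 17.1 in PC and finally 78.7, 75.8 and 80.1 in RC. Each TC library was below each CC library and each PC library was below each TC library, whereas the RC values lay inside the range of CC. In TC it was 2.88-fold lower than in CC (log2 -1.53 ± 0.12 SE, adjusted p = 3.7e-07). In PC the difference was 5.1-fold (log2 -2.35 ± 0.13 SE, adjusted p = 1.2e-08), and PC was also 1.77-fold below TC (log2 -0.82, adjusted p = 0.00059). Between PC and RC it rose 4.31-fold (log2 2.11, adjusted p = 2.5e-08). RC missed the threshold against CC (log2 -0.24 ± 0.12 SE, adjusted p = 0.13), and this call rested on CC replicate 3, the lowest of the control libraries. Without it the difference was -0.38 with an adjusted p of 0.0062.

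GOT2, the mitochondrial enzyme (chromosome 16, 58707131 to 58734342, minus strand), moved the same way over a much smaller range. Its levels were 168, 172 and 170 CPM in CC, 151, 144 and 140 in TC, then 112, 113 and 109 in PC and finally 207, 223 and 207 in RC. No 2 groups overlapped, and RC lay above CC. It was 1.17-fold lower in TC (log2 -0.23 ± 0.05 SE, adjusted p = 0.0022) and 1.53-fold lower in PC (log2 -0.61 ± 0.05 SE, adjusted p = 7.1e-07), neither of them past the test for a change beyond 1.5-fold. RC was 1.25-fold higher than CC (log2 0.32, adjusted p = 0.00072), which made GOT2 the one tested member called higher in recovered cells than in controls. The coding sequences of GOT1 and GOT2 were 59.4% identical over 1210 aligned bases, so their reads are readily separated. The difference between the falls of GOT1 and GOT2 was not itself tested.

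Of the pair of aspartate-glutamate carriers, SLC25A13 alone reached 1 CPM in any library. SLC25A13 (chromosome 7, 96120220 to 96322147, minus strand) stood at 79.6, 94.9 and 95.8 CPM in CC, 93.6, 82.3 and 73.7 in TC, then 74.5, 70.1 and 61.5 in PC and finally 105, 106 and 108 in RC. TC overlapped CC, while the PC libraries lay below every CC library and the RC libraries above. The TC difference missed the threshold (log2 -0.11 ± 0.1 SE, adjusted p = 0.33). PC was 1.31-fold lower than CC (log2 -0.39 ± 0.1 SE, adjusted p = 0.0041), and RC was 1.55-fold higher than PC (log2 0.63, adjusted p = 0.00012). The excess of RC over CC missed the threshold (log2 0.24 ± 0.1 SE, adjusted p = 0.08).

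SLC25A12, the other carrier (chromosome 2, 171783405 to 171999859, minus strand), drew 13, 2 and 9 reads in CC, 2, 5 and 0 in TC, then 6, 0 and 5 in PC and finally 1, 4 and 2 in RC. This is at most 0.321 CPM, and no order of the groups was read from it. Its coding sequence was 72.2% identical to that of SLC25A13 over 2018 aligned bases. Genes next to it were looked at after its values were seen. HAT1, which encodes a histone acetyltransferase and lies inside the GENCODE span of SLC25A12 on the opposite strand, drew 5 to 25 counts per library, METAP1D 0 to 6 and DLX1 0 in each library, whereas DYNC1I2 on the other side had a median of 1.32 CPM and ran from 0.764 to 1.74 CPM in 11 libraries, with 13.8 CPM in TC replicate 1. Farther out, CYBRD1 ran from 89.5 to 286 CPM and ITGA6 from 378 to 2910 CPM. A run of 4 successive protein-coding genes, from SLC25A12 to DLX1, was thus under 0.5 CPM in all 12 libraries, and its cause was not tested.

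**Figure D2:**
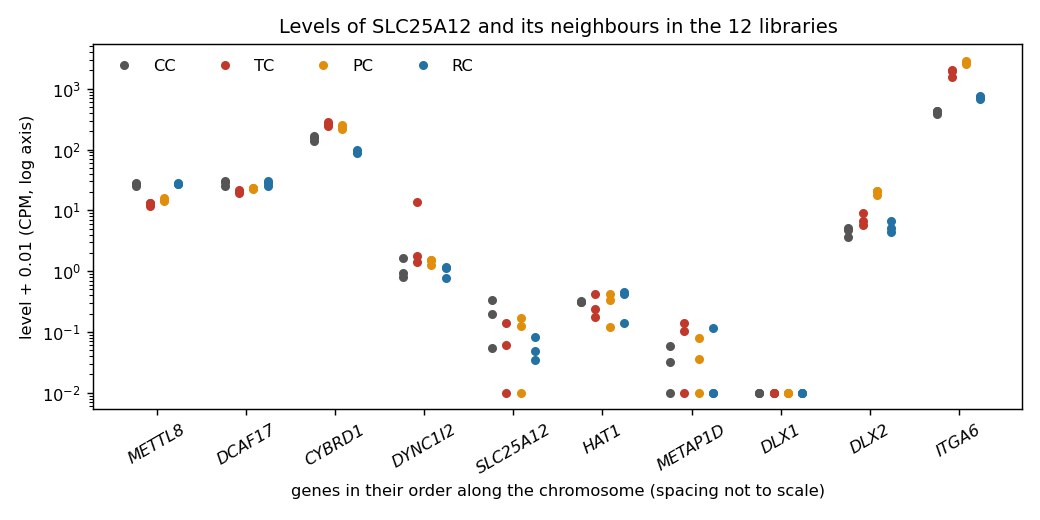
Level plus 0.01 in CPM (y axis, log scale) of SLC25A12 and 9 neighbouring genes in chromosomal order (x axis, not to scale), with 1 point per library coloured by group. SLC25A12, HAT1, METAP1D and DLX1 sit at most at 0.445 CPM, between CYBRD1 (89.5 to 286 CPM) and ITGA6 (378 to 2910 CPM).

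GLUD1, which feeds glutamate carbon into the mitochondrial citrate cycle (chromosome 10, 87050202 to 87094843, minus strand), fell in TC and again in PC. It stood at 129, 132 and 124 CPM in CC, 80.3, 73.7 and 70.6 in TC, then 52.7, 54.6 and 52.2 in PC and finally 99.8, 105 and 109 in RC. The 4 groups did not overlap, and RC regained part of the distance to CC. The fall was 1.72-fold in TC (log2 -0.78 ± 0.06 SE, adjusted p = 2.9e-07) and 2.42-fold in PC (log2 -1.27 ± 0.06 SE, adjusted p = 4.7e-09). RC remained 1.23-fold below CC (log2 -0.3, adjusted p = 0.0028). GLUD1 shares 97.6% of its coding sequence with GLUD2, which drew at most 1 count in a library. A numbered second entry for GLUD2 drew 2 to 16 counts per library and the pseudogene GLUD1P3 16 to 56, both looked at after their values were seen. How reads that align to both were counted is not given in the sources used here, so the level of GLUD1 is uncertain to that extent. In the RefSeq table the span of SHLD2, at 24.2 to 32.5 CPM, overlaps that of GLUD1 by 371 bases.

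GLUL, glutamine synthetase (chromosome 1, 182378098 to 182392206, minus strand), was lower in both PC and RC than in CC, within a narrow range. Its levels were 150, 135 and 142 CPM in CC, 145, 127 and 113 in TC, then 111, 102 and 87.9 in PC and finally 107, 113 and 112 in RC. TC overlapped CC and the RC values overlapped those of PC. The difference was not called in TC (log2 -0.15 ± 0.1 SE, adjusted p = 0.18; without TC replicate 1, log2 -0.24 and adjusted p = 0.046), but GLUL was 1.42-fold lower in PC (log2 -0.51 ± 0.1 SE, adjusted p = 0.00056) and 1.29-fold lower in RC (log2 -0.37 ± 0.1 SE, adjusted p = 0.012) than in CC. It was the one tested member that did not pass the test between PC and RC (log2 0.14 ± 0.1 SE, adjusted p = 0.22). Its call in PC against TC (log2 -0.35, adjusted p = 0.021) was lost when 1 of 4 libraries was left out, TC replicate 1 (adjusted p = 0.095) or 2 (0.053) or PC replicate 2 (0.052) or 3 (0.091).

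ASS1, argininosuccinate synthase (chromosome 9, 130444961 to 130501274, plus strand), drew no read in CC, 1, 2 and 2 reads in TC, then 0, 2 and 0 in PC and finally 0, 1 and 0 in RC. All libraries were under the floor of 3 counts, so no fold change is given. The gene before it, HMCN2, drew 0 to 4 counts per library, and the one after it, FUBP3, 3750 to 6262.

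Both genes of proline synthesis were lower in TC and in PC. ALDH18A1 (chromosome 10, 95605941 to 95656711, minus strand), the entry step from glutamate, stood at 86.4, 88.6 and 86.9 CPM in CC, 39.1, 41.4 and 42.3 in TC, then 31.7, 36.3 and 34.5 in PC and finally 88.1, 83.2 and 78.1 in RC. CC libraries differed by little, TC and PC lay far below them, and RC overlapped CC. The gene was 2.13-fold lower in TC (log2 -1.09 ± 0.07 SE, adjusted p = 2.9e-08) and 2.56-fold lower in PC (log2 -1.35 ± 0.07 SE, adjusted p = 5e-09). In RC the difference from CC missed the threshold (log2 -0.07 ± 0.07 SE, adjusted p = 0.43). The call of PC below TC (log2 -0.26, adjusted p = 0.013) did not survive leaving out TC replicate 2 (adjusted p = 0.05) or PC replicate 1 (0.058).

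PYCR1, which reduces pyrroline carboxylate to proline in mitochondria (chromosome 17, 81932384 to 81942412, minus strand), was the member farthest from control levels on day 9. It stood at 221, 151 and 213 CPM in CC, 62.3, 66.5 and 70.5 in TC, then 74.6, 74.8 and 75.9 in PC and finally 94.5, 105 and 115 in RC. Every TC, PC and RC library was below every CC library, although CC replicate 2 was well below the other controls. The fall was 2.93-fold in TC (log2 -1.55 ± 0.13 SE, adjusted p = 3.6e-07), 2.59-fold in PC (log2 -1.38 ± 0.13 SE, adjusted p = 9.5e-07) and 1.86-fold in RC (log2 -0.9 ± 0.12 SE, adjusted p = 0.00023). It was the one tested member with a higher mean in PC than in TC, a difference that was not called (log2 0.18 ± 0.12 SE, adjusted p = 0.34) although the 3 PC libraries lay above the 3 TC libraries. In GENCODE v44, 450 bases of its exons (19.8% of the transcript) lie opposite exons of another gene on the other strand. Whether the counting used strand was not stated.

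**Figure D3:**
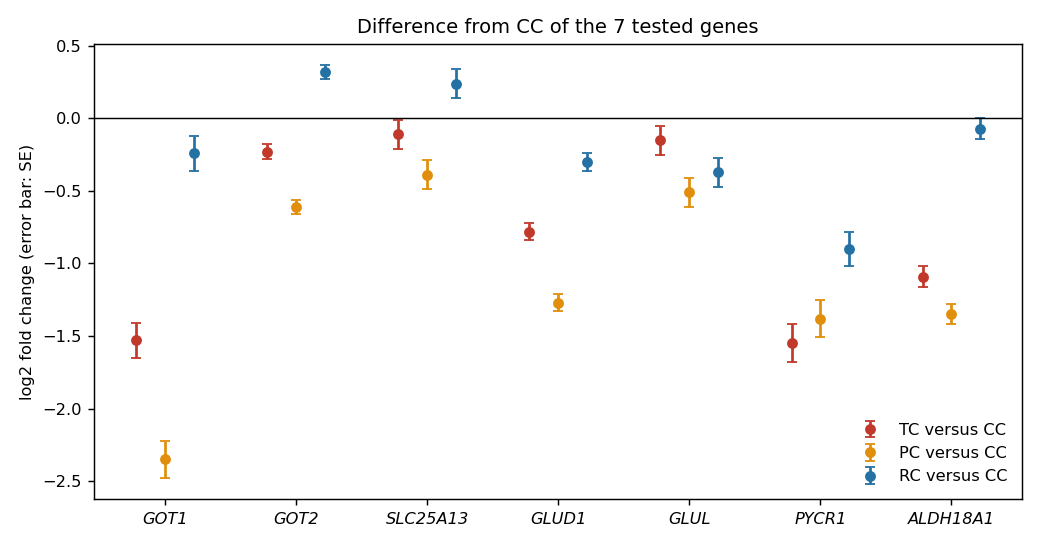
Log2 fold change against CC (y axis, bars give the SE) of the 7 tested genes (x axis) in TC, PC and RC. GOT1 reached -2.35 in PC and lay at -0.24 in RC, while PYCR1 was at -1.55, -1.38 and -0.9 in TC, PC and RC.

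The members' calls are set here beside those of all 15916 genes tested. Comparisons that share CC or PC libraries are not independent of each other. In TC against CC, 5 of the 7 members were lower and none higher (adjusted p under 0.05), where 34.7% of all genes were lower and 33.2% higher. GOT1, GLUD1, PYCR1 and ALDH18A1 were lower beyond 1.5-fold, against 19.3% of all genes lower and 16.1% higher by that rule. Over the members the median log2 difference was -0.78, over all genes -0.02. In PC against CC, 7 of 7 were lower and none higher, against 35.9% and 33.2% of all genes. The libraries of PC and CC did not overlap in any of the 7, but the share of all genes without such overlap was not counted. The same 4 genes were lower beyond 1.5-fold (all genes, 19.9% lower and 17.2% higher). The medians were -1.27 and -0.04.

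From TC to PC, 5 of 7 members were lower (GOT1, GOT2, GLUD1, GLUL and ALDH18A1) and none was called higher, against 12.5% of all genes lower and 12.2% higher. None passed the 1.5-fold rule, which called 1.15% of all genes lower and 2.33% higher. The medians of this difference were -0.35 over members and 0 over all genes. From PC to RC, all tested members but GLUL were higher and none was lower, against 35.7% higher and 34.2% lower among all genes. GOT1, GOT2, GLUD1 and ALDH18A1 were higher beyond 1.5-fold (all genes, 20.2% higher and 18.5% lower), and the medians were 0.93 and 0.01. In RC against CC, GLUD1, GLUL and PYCR1 were lower and GOT2 was higher, against 19.1% and 18.2% of all genes. None passed the 1.5-fold rule, which called 2.52% of all genes lower and 1.35% higher (without CC replicate 2, 1 member passed, PYCR1), and the medians were -0.24 and 0.

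Per kilobase of the reference transcript, the order of the members changed with treatment. In CC, PYCR1 came first with 85.9 ± 17.0 CPM per kb (SD, n = 3) and GOT2 next with 70.3 ± 0.764. GOT1 (46.8 ± 8.31), GLUD1 (38.9 ± 1.32), SLC25A13 (28.7 ± 2.89), ALDH18A1 (26.0 ± 0.357) and GLUL (18.9 ± 0.976) followed in CPM per kb. The libraries of PYCR1 and GOT2, of GOT1 and GLUD1, and of SLC25A13 and ALDH18A1 overlapped, so these neighbours in the order do not differ beyond their spread. In PC the order by CPM per kb was GOT2 (46.1 ± 0.803), PYCR1 (33.1 ± 0.294), SLC25A13 (21.9 ± 2.1), GLUD1 (16.1 ± 0.38), GLUL (13.3 ± 1.53), ALDH18A1 (10.2 ± 0.696) and GOT1 (9.18 ± 0.679), with the last pair overlapping. GOT1 thus went from above GLUL in CC to below it in PC, and in RC it was again above it at 39.5 ± 1.12 against 14.6 ± 0.418 CPM per kb. These values divide all exon reads by the length of 1 transcript per gene and would change if another isoform were expressed.

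**Figure D4:**
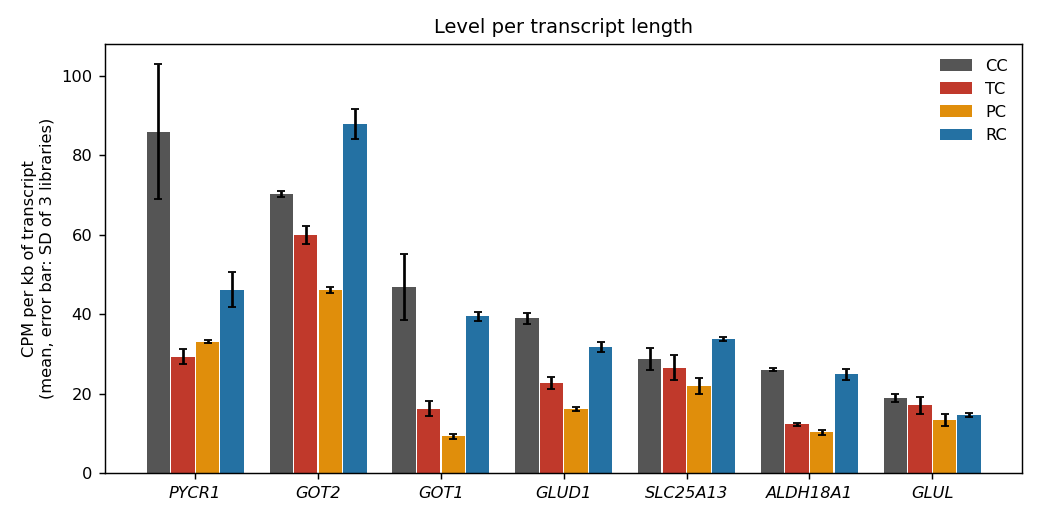
Mean level per kilobase of transcript (y axis, CPM per kb, from 0; error bars are the SD of 3 libraries) of the 7 tested genes (x axis) in CC, TC, PC and RC. GOT1 was at 46.8 in CC and 9.18 in PC, and GOT2 was the highest of the 7 in TC, PC and RC.

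The rest of the pathway was read from a list of 42 other genes, of which 37 were tested. In TC against CC, 21 were lower and 9 higher, against 34.7% and 33.2% of all genes. Beyond 1.5-fold these were 16 and 3, against 19.3% and 16.1%. The median log2 fold change was -0.64, over all genes -0.02. In PC against CC, 22 were lower and 7 higher, against 35.9% and 33.2% of all genes. Beyond 1.5-fold these were 18 and 2, against 19.9% and 17.2%, and the medians were -0.76 and -0.04. From PC to RC, 20 were higher and 9 lower, against 35.7% and 34.2% of all genes. For RC against CC, 16 were lower and 3 higher, against 19.1% and 18.2%. Between TC and PC, 12 were lower and 2 higher in PC, against 12.5% and 12.2%.

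Aminotransferases outside the GOT pair were lower for 5 of 6 in TC and in PC, against 34.7% and 35.9% of all genes. PSAT1, which passes the amino group of glutamate to phosphoserine in serine synthesis, stood at 327 ± 93.2 CPM in CC, 42.6 ± 13.1 in TC, 46 ± 8.44 in PC and 186 ± 36.4 in RC (SD, n = 3). BCAT1, the cytosolic branched-chain aminotransferase, was at 46.5 ± 13.3 CPM in controls and 2.68 ± 0.391 in treated cells (log2 -4.11 ± 0.25 SE, adjusted p = 2.7e-08). GPT2, the mitochondrial alanine aminotransferase, fell from 68.8 to 16.1 CPM (log2 -2.1, adjusted p = 1.1e-06), and OAT, which links ornithine to glutamate and proline, from 161 to 92.4 CPM in TC (log2 -0.8, adjusted p = 2.6e-06). OAT fell further to 70.2 CPM in PC (log2 -0.4 against TC, adjusted p = 0.0039), whereas for PSAT1, BCAT1 and GPT2 the step from TC to PC was not called.

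Among enzymes that use glutamate and aspartate, CAD, which commits aspartate to pyrimidines, averaged 145 ± 16.9 CPM in controls, fell to 59.1 ± 2.51 in TC (log2 -1.3 ± 0.08 SE, adjusted p = 2.7e-08) and was at 157 ± 4.56 in RC. The adenylosuccinate synthetases, which use aspartate for AMP, moved in opposite directions. ADSS2 fell from 107 to 47.4 CPM in TC (log2 -1.18, adjusted p = 1.6e-08), while ADSS1 rose from 12.4 to 35.4 CPM (log2 1.52, adjusted p = 7.3e-07) and then dropped to 4.06 CPM in RC, below CC (log2 -1.6, adjusted p = 2e-05). NAT8L, which acetylates aspartate, was at 108 CPM in CC, 44.5 in TC, 24.8 in PC and 77.9 in RC. GAD1, which converts glutamate to GABA, was lower in TC (15.2 against 31.9 CPM, adjusted p = 9e-05) and already higher again in PC (24.8 CPM, adjusted p = 0.0078 against TC).

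The malate dehydrogenases of the shuttle were lower in TC and PC as well, but their group, shuttle partners with mitochondrial glutamate carriers, was split. Of its 5 tested genes, 2 were lower, 2 higher and 1 not called in TC, and again in PC. Among all genes 34.7% were lower and 33.2% higher in TC, 35.9% and 33.2% in PC. MDH1 in the cytosol averaged 664 CPM in CC, 368 in TC, 245 in PC and 672 in RC (log2 -0.85 in TC, adjusted p = 7e-05, and -1.44 in PC, adjusted p = 7.6e-07). MDH2 in mitochondria averaged 421, 270, 192 and 336 CPM in the same order (log2 -0.64, adjusted p = 3.8e-05, and -1.14, adjusted p = 2.6e-07). The mitochondrial glutamate carrier SLC25A22 went the other way, from a control level of 33.1 CPM to 54.4 in treated cells (log2 0.72 ± 0.07 SE, adjusted p = 1.9e-06), with 48.3 in persisters. All 4 plasma membrane transporters listed were lower in TC and PC, against 34.7% and 35.9% of all genes. They were higher in RC than in PC, against 35.7% of all genes. The one above 10 CPM was SLC7A11, which exports glutamate in exchange for cystine, with 272, 147 and 321 CPM in CC and 28, 44.5 and 88.3 in TC (log2 -2.2 ± 0.39 SE, adjusted p = 0.00032).

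In the proline group, ALDH4A1, which returns pyrroline carboxylate to glutamate, was at 53 CPM in CC and 47.3 in TC, a difference that was not called (adjusted p = 0.21, but log2 -0.29 and adjusted p = 0.0091 without CC replicate 3), and at 26.2 in PC (log2 -1.02, adjusted p = 5.6e-06) and 30.3 in RC (log2 -0.81, adjusted p = 0.00024). Of the 5 tested genes of the proline group, 1 was lower in TC and 3 in PC, and none was higher. In the arginine and urea cycle group 4 genes were tested, with 1 lower and 2 higher in TC and again in PC. For both groups the shares of all genes were 34.7% lower and 33.2% higher in TC, and 35.9% and 33.2% in PC. The lower gene of the arginine group, ARG2, the mitochondrial arginase, was at 12.1 CPM in CC and 4.84 in TC (log2 -1.32, adjusted p = 2.4e-06). ASNS, asparagine synthetase, was singled out after its values were seen: it drew 2 to 93 counts per library and is overlapped over 76325 bases by the readthrough entry CZ1P-ASNS, so its level is uncertain.

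**Figure D5:**
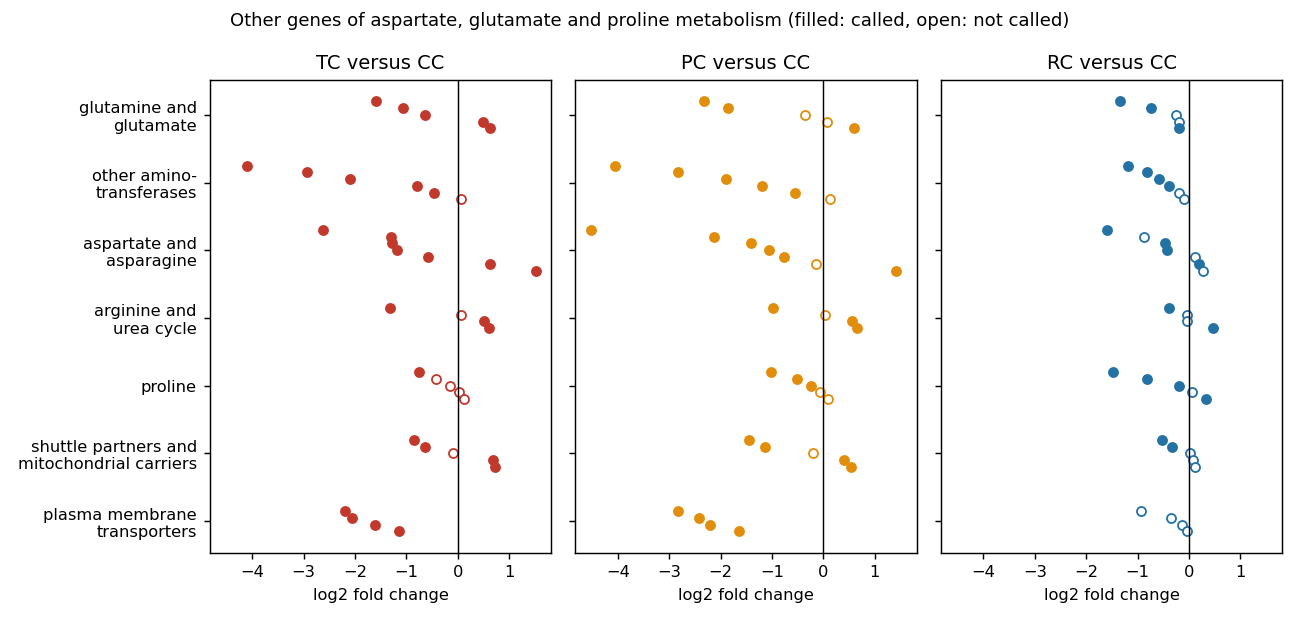
Log2 fold change against CC (x axis) of 36 of the 37 tested pathway genes, grouped by function (y axis), in TC, PC and RC; filled points were called at an adjusted p under 0.05 and open points were not. The 4 plasma membrane transporters lie left of 0 in TC and PC; ASPA, with no counts in CC, is left out.

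Across the 12 libraries, the log2 levels of GOT1 and GLUD1 ran most closely together among the members (Pearson r = 0.98), followed by GOT1 and ALDH18A1 (r = 0.97). GOT2 with GLUL and SLC25A13 with PYCR1 had the lowest r (0.35). The 12 libraries form 4 groups, so these values describe shared group differences, and many other genes had the same pattern. GOT1 had an r over 0.9 with 1730 of 15909 other genes, GLUL with 40. The genes most like each member were AFG3L2 (r = 0.993) and GTF3C3 (0.992) for GOT1, GTF3C1 (0.99) and MACROH2A1 (0.988) for GOT2, and ZBTB10 (0.967) and LRRK2 (0.957) for SLC25A13. MMUT (0.994) and NRG2 (0.993) were most like GLUD1, INPP4B (0.964) and ANO5 (0.963) most like GLUL, EIF2S3 and its copy EIF2S3B (both 0.987) most like PYCR1, and ALDH1A1 and PLS1 (both 0.995) most like ALDH18A1.

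Because the study asks how aspartate and glutamate content of gene products relates to MAPKi, the codons of the 9 genes were counted in their reference coding sequences. Aspartate and glutamate codons together made up 9.59% of the codons of SLC25A12 and 12.4% of those of ASS1, the lowest and the highest of the 9, beside a median of 11.9% over 12634 tested coding genes. GOT1 held 10.9%, GOT2 9.77%, SLC25A13 9.93%, PYCR1 9.72% and ALDH18A1 11.4%, all under that median. GLUD1 (above 51.9% of those genes) and GLUL (12.3%) were over it. GOT1 was rich in asparagine codons (6.05%, above 95.3% of those genes), and PYCR1 was poor in them (1.25%, above 5.11%). Of the aspartate and glutamate codons, those ending in A or T made up 29.0% in PYCR1 and 65.7% in SLC25A13, with a median of 43.9%.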

How the data were processed

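Raw read counts per gene were deposited for 12 libraries of cytoplasmic (total in the paper's sequencing methods), rRNA-depleted RNA, sequenced in pairs. Per the labels and methods, the authors trimmed reads with fastp 0.20.1, mapped them to GRCh38.p13 with HISAT2 2.2.1 with exon counting by htseq-count 0.13.5. Strandedness and the treatment of reads with several alignments were not stated. No normalization was applied before deposit.

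The members and lists were chosen with earlier results of these data known. Genes with a mean library-scaled count of at least 10 were tested (15916 of 44659). Counts were normalized by TMM and fitted by the quasi-likelihood method of edgeR 4.0.16 (R 4.3.3), with 1 mean per group and the 12 libraries together, which left 8 residual degrees of freedom and a biological coefficient of variation of 0.182. The 5 comparisons set TC, PC and RC against CC, PC against TC, and RC against PC. A call needed a p under 0.05 after Benjamini-Hochberg adjustment across the genes tested (two-sided glmQLFTest). For a change beyond 1.5-fold, glmTreat was used with the same limit. SE were derived from the F statistic. Levels are CPM of the normalized library. The fit was tested on simulated data. No 2 libraries of a group agreed within sampling noise. Alternatives were other scalings, a lower filter, DESeq2 1.42.0, a replicate block, fits on 2 groups and leaving out each library.

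Besides the 9 members, ATF4, MYC, DUSP6 and the 2 genes most correlated with each member were named. Genes of the pathway list were named if past the 1.5-fold test in TC or PC with at least 10 CPM in a group. All others, among them neighbouring and overlapping genes and single cell type markers, are to be read as chosen after their values were seen. Some genes of the list are not reported by name here. Positions, transcript lengths and codons came from GENCODE v44 (hg38), gene spans and promoters from RefSeq (GRCh38.p14), matched by symbol. Of 12695 tested coding genes, 99.5% had a complete coding sequence.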

Additional observations from a re-analysis of the deposited data

How the results depend on the processing

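Over 18 alternatives, the 630 fold changes of the tested members kept their direction, and 618 also kept their side of the threshold. With DESeq2, 2 members were higher in RC than in CC, SLC25A13 being added (log2 0.25, adjusted p = 0.048), and 3 other pathway genes were lower beyond 1.5-fold from PC to RC. With only the libraries of the 2 groups compared, 1 member was higher in PC than in TC (PYCR1, log2 0.17, adjusted p = 0.04), 2 other pathway genes were lower beyond 1.5-fold there, and 1 was in RC against CC. With a filter on a summed count of at least 2, 1 other pathway gene was higher in PC than in TC. Whether samples with the same replicate number were paired is not known from the labels, and the main fit used no pairing. Over 18 pairs with the same number the correlation of deviations from the group means ran from -0.04 to 0.16. Of these, 2 were over 0.1, and 20 of 36 best matches shared a number. Pairs of TC with PC were at 0.16, 0.07 and 0.12 for replicates 1, 2 and 3, so a pairing of these groups was not excluded. The replicate block raised the other pathway genes lower beyond 1.5-fold in PC against TC to 2 and changed no call of a member.

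Leaving out 1 library moved the members lower beyond 1.5-fold in RC against CC between 0 and 1 (PYCR1, without CC replicate 2). For the other pathway genes it moved those lower in RC against CC between 10 (without RC replicate 1 or 2) and 17, those lower beyond 1.5-fold between 1 (without CC replicate 1 or RC replicate 1) and 3, and those higher between 1 (without CC replicate 1 or RC replicate 2 or 3) and 4. In PC against TC it moved those higher between 1 (without TC replicate 2 or 3 or any PC replicate) and 3, and those lower beyond 1.5-fold between 1 and 2 (without CC replicate 3 or TC replicate 3). The difference of DUSP6 between RC and CC, -0.22, was -0.54 without CC replicate 1 and 0.65 without CC replicate 3 (adjusted p = 0.0079). SLC25A13 was called lower in PC than in TC without CC replicate 1 (log2 -0.28, adjusted p = 0.044) or TC replicate 3 (log2 -0.36, adjusted p = 0.028). The causes of these changes were not tested. A level under about 3 counts in a library was not interpreted here, which held for ASS1 in every library and for SLC25A12 in some.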

Other observations

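The control libraries differed among themselves in several of these genes. CC replicate 2 was the lowest control for PYCR1 (151 CPM against 221 and 213), PSAT1 (221 against 367 and 394), GPT2 (45.7 against 68.5 and 92.2), BCAT1 (31.1 against 53.2 and 55.1), SLC7A11 (147 against 272 and 321) and ATF4 (533 against 615 and 769). CC replicate 3 was the lowest control for GOT1 (73.8 CPM) and GAD1 (23) and the highest for MYC (70) and DUSP6 (297 against 77.6 and 94.4), and it had the smallest mitochondrial share of the controls (1.31%). GOT2 (168 to 172 CPM) and ALDH18A1 (86.4 to 88.6 CPM) varied little between the same 3 libraries.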
